A study of Mus musculus with 46 samples.

Results

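Cells keep their proteins folded with chaperones, and the 35 genes described here encode the cytosolic heat shock and chaperone machinery of the mouse brain, measured in the BNST (bed nucleus of stria terminalis), a nucleus of the extended amygdala that takes part in stress and withdrawal states. Members are a list of named genes drawn up with earlier results of these data known, and every probeset of the expression array whose annotation gives only that gene symbol was taken. This gave 82 of the 45037 probesets, for 32 of the 35 genes. Hsp90ab1 and Hsf1 had no probeset named for them alone, and Ptges3 was found only on 2 probesets that the annotation shares with a pseudogene, so these 3 genes have no value. Where a gene has several probesets, the brightest on average is called its representative.

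HSP70 proteins bind exposed hydrophobic stretches of unfolded chains in a cycle driven by ATP. J-domain proteins such as Dnajb1 bring clients and start the ATP step, while exchange factors such as the HSP110 protein Hsph1 and the BAG proteins release ADP and let the client go. HSP90 and its co-chaperones mature kinases and steroid receptors, small heat shock proteins such as Hspb1 hold aggregating proteins without ATP, and the ring-shaped chaperonin of the Cct subunits and Tcp1 folds actin and tubulin. Heat shock factor 1 raises many of these genes together under protein-damaging stress by binding heat shock elements, inverted repeats of the bases GAA. The name of the group did not hold for all members, since Hspa9, Hspd1 and Hspe1 encode chaperones of the mitochondrial matrix, and Hsf2 is a transcription factor.

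The tissue came from adult male C57BL/6J mice, of the strain given in the labels as C57BL/6, 1 array per mouse. Chronic intermittent ethanol (CIE) mice breathed ethanol vapor at 10 to 13 mg/l of air for 16 hours a day over 4 days, then had 7 days without it, in 4 such cycles, and got ethanol (1.6 g/kg) and pyrazole (1 mmol/kg), which blocks alcohol dehydrogenase, by injection before each cycle. Control (Ctrl) mice had the same handling with air, saline and the same pyrazole, so pyrazole was common to all groups. Brains were taken 0 h, 8 h, 72 h or 7 d after the final session. Each of the 8 groups had 6 mice except CIE at 7 d, which had 4, for 46 arrays in all. The 8 h collection was the only time that was not a whole number of days after the last session, so clock time and time since the session cannot be told apart there.

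Array medians lay between 6.78 and 6.83 on the log2 scale, and any pair of arrays correlated between 0.981 and 0.998. The array of Ctrl 0 h replicate 48 had the lowest weight when arrays were weighted by their agreement with their group, 0.243. Neuronal markers Snap25, Rbfox3, Syt1, Nefl and Tubb3 were at or above the percentile 89.5 of all probesets, and the extended amygdala markers at or above the percentile 74.6. Markers of striatal medium spiny neurons were also bright. Their mean ran from 9.13 to 10.04 between the mice of the Ctrl 0 h group, from 8.92 to 10.33 in Ctrl 8 h and from 9.01 to 10.88 in Ctrl 7 d.

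Promoters were searched because heat shock factor 1 is known to act through them. The search looked for pairs of inverted units, GAANNTTC or TTCNNGAA, and for triplets. Triplets are GAANNTTC followed by NN and GAA, or TTCNNGAA followed by NN and TTC. Each pair reads the same on both strands and the triplets are each other's reverse complement, so both strands were covered, and every triplet holds a pair. The RefSeq promoter windows run from 250 bases before to 50 bases after a start site on GRCm38.p6 and held 28 of the 35 members. Of these 28 genes, 13 (46.43%) had a pair, against 16.97% of 27025 genes in the table, and 5 (17.9%) had a triplet, against 0.662% of genes. The triplet members were Chordc1, Dnajb6, Hspd1, Hspe1 and Hsph1. Among the 8 members of the table that differed between CIE and Ctrl at 0 h or 8 h, described below by group, 4 had a pair and 3 a triplet. Of the other 20 members, 9 had a pair and 2 a triplet. These 20 include Ptges3, which had no pair and, without a value on the array, could not be called.

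The sequences that follow are those of the 3 genes with both a triplet and a CIE difference, then those of Hspb1, which had the lowest adjusted p at 0 h, and Hspa1b, a stress-inducible HSP70, both added after their values were known. Capitals mark bases within a pair or triplet match. Chordc1 is given from 120 bases before to 30 after its start (GRCm38.p6, chr9:18292147-18292296, plus strand), and its run of alternating units covers the start site itself. Hspe1 is given over the same span (chr1:55088028-55088177, plus strand), and its match from base -89 to -72 is shared with the neighbouring Hspd1, which is read the other way. For Hsph1, which has a pair of annotated starts, the downstream site alone is shown, bases 5 to 30 from the later start (chr5:149636286-149636311, minus strand). Hspb1 (chr5:135887799-135887948, plus strand) has 2 separate pairs, and Hspa1b (chr17:34959209-34959358, minus strand) has 1, at base -104, where its neighbour Hspa1a has the same 8 bases. A match is a description of letters and no measurement of binding.
Chordc1: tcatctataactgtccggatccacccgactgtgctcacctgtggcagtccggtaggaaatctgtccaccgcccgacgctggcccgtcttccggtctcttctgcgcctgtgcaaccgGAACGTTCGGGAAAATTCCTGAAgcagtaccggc
Hspe1: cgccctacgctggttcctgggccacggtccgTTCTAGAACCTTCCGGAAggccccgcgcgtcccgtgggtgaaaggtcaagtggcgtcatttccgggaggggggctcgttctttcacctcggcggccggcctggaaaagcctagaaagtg
Hsph1: aatgctgcagaTTCTGGAAAGTTCtc
Hspb1: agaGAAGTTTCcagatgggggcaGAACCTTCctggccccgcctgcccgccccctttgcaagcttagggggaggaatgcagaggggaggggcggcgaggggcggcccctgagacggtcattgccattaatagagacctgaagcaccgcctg
Hspa1b: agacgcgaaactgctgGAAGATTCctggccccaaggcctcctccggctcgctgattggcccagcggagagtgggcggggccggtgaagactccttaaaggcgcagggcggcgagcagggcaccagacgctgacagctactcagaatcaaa

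**Figure D1:**
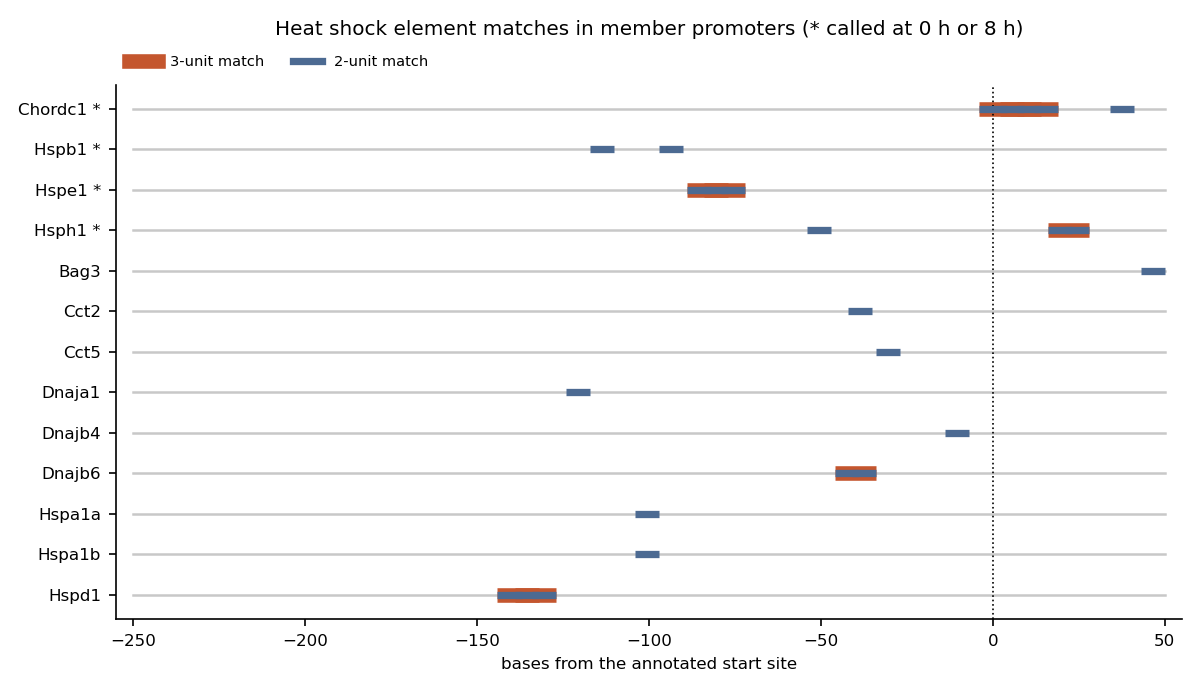
Positions of heat shock element matches in the promoter windows of the 13 members with any match, in bases from the annotated start site (dotted line), from 250 before to 50 after it. Thick orange bars are triplets and thin blue bars are pairs, and asterisks mark genes called at 0 h or 8 h. Of the genes with triplets, Chordc1, Hspe1 and Hsph1 fell in CIE mice at 0 h, while Dnajb6 and Hspd1 were not called. Hspd1 and Hspe1 share the same match.

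The first question was whether chaperone transcripts differed at the end of the last vapor session. At 0 h most of them were lower in CIE mice, and the small heat shock protein gene Hspb1, the HSP110 genes Hsph1 and Hspa4l, the constitutive HSP70 gene Hspa8, the HSP90 co-chaperone gene Chordc1, and the chaperonin genes Hspe1 and Cct3 fell on at least 1 probeset each. A single member, Hspa2, rose. At a Benjamini-Hochberg adjusted p of 0.01 over all probesets (limma), 11 of 82 member probesets (13.4%), in 8 genes, were called, 10 lower and 1 higher, while 2.4% of all probesets were called, 1.35% lower and 1.05% higher. The median log2 difference of the members was -0.10, against -0.0030 for all probesets, and 62 of 82 members (75.6%) were negative, against 51.1% of all. For 12 member probesets the CIE mice lay wholly below the Ctrl mice and for 1 wholly above, where 1.35% and 1.15% of all probesets did so. Probesets of the same gene are not separate measurements of the condition. Members also had a smaller median residual SD than all probesets (0.106 against 0.135), and the share among probesets of like spread or brightness was not tested. When only the 0 h groups were fitted the number called was 5, for Hspb1 (both probesets), Chordc1, Hspa4l and Hspa8, and without Ctrl 0 h replicate 48 it was 16. The Hsph1 calls were not among the 5, with adjusted p of 0.0277 and 0.0728 (limma).

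**Figure D2:**
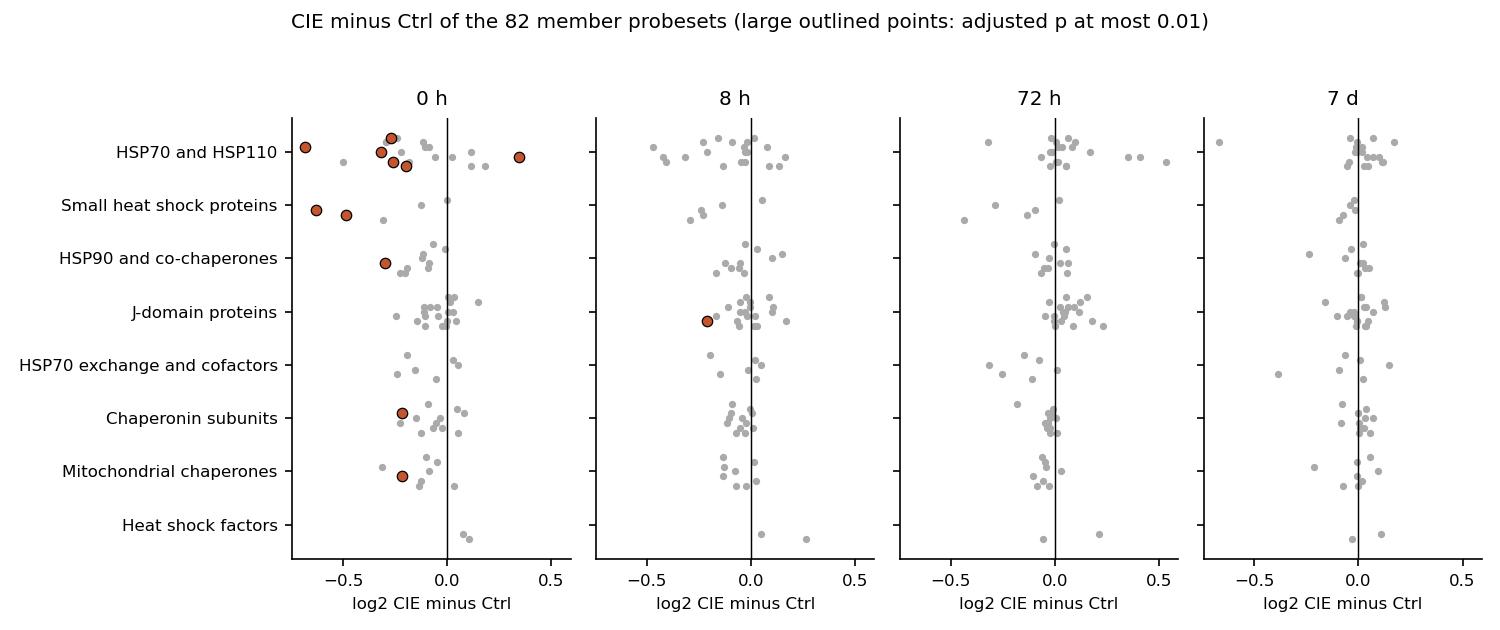
Log2 difference of CIE minus Ctrl (x axis) of each of the 82 member probesets, grouped by role (y axis, vertical scatter for legibility), in a panel for each of the 4 times. Large outlined points are called at an adjusted p of 0.01, and they number 11 at 0 h, 1 at 8 h and 0 at 72 h and 7 d.

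Hspb1 encodes the small heat shock protein HSP27 (HSP25 in mice), which holds unfolding proteins and protects actin filaments. On probeset 1425964_x_at, Ctrl mice at 0 h lay between 8.70 and 9.03 (median 8.85) on the log2 scale and CIE mice between 8.11 and 8.41 (median 8.21). No CIE mouse reached the lowest Ctrl mouse. The log2 difference was -0.63 (SE 0.09, adjusted p = 3.64e-06, limma), or 1.55-fold lower. The brighter probeset 1422943_a_at, between 9.27 and 9.64 in Ctrl mice and between 8.87 and 9.00 in CIE mice, differed by -0.49 (SE 0.08, adjusted p = 5.85e-05, limma). Both calls stayed in each of the 46 fits that left out 1 array, with the difference between -0.67 and -0.60 for the first and between -0.52 and -0.45 for the second. Cryab, the other small heat shock protein among the members, had no probeset called.

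Markers of several cell types moved in the same mice. All 6 mural cell markers were lower in CIE at 0 h and 2 of them, Kcnj8 (log2 difference -0.55) and Vtn (-0.41), passed the test, and the mean of the 6 lay between 9.15 and 9.50 in Ctrl mice and between 8.88 and 9.15 in CIE mice. Of 6 endothelial markers Kdr (-0.40) and Itm2a (-0.31) fell and Slc2a1 (0.34) rose, while Fcrls (-1.30) and Gpr34 (-0.49) were lower, 2 of 7 markers of microglia. The mean of the endothelial markers lay between 9.35 and 9.70 in Ctrl and between 9.24 and 9.50 in CIE mice, and that of the 7 microglia markers between 9.72 and 10.10 and between 9.37 and 9.68. The oligodendrocyte marker Ugt8a fell (-0.39), 1 of 6, and the choroid plexus marker Kl rose (0.42), 1 of 5 for choroid plexus and ependyma. All 5 measured markers of striatal medium spiny neurons were higher, by 0.39 in the median, with none called. No marker of astrocytes, oligodendrocyte precursors or neurons was called. In bulk tissue fewer cells of a type and less RNA per cell cannot be told apart, and the part of these cells in the chaperone differences was not tested.

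Among the HSP70 and HSP110 genes, 6 of 20 probesets were called at 0 h, 5 lower and 1 higher. Hsph1 encodes HSP105, an HSP110 protein that recharges HSP70. On its probeset 1423566_a_at the Ctrl mice lay between 11.10 and 11.34 (median 11.11) and the CIE mice between 10.82 and 10.98 (median 10.85), with no overlap. The difference was -0.27 (SE 0.04, adjusted p = 5.27e-05, limma). The representative probeset 1425993_a_at differed by -0.20 (adjusted p = 0.000395, limma), and 5 of 6 CIE mice lay under the lowest Ctrl mouse.

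Hspa4l encodes another HSP110 protein, and all 5 of its probesets were lower in CIE mice. The difference of 1418253_a_at was -0.32 (SE 0.06, adjusted p = 0.000392, limma), from 10.32 to 10.57 (median 10.39) in Ctrl mice and from 10.00 to 10.14 (median 10.10) in CIE mice. Probeset 1449010_at differed by -0.26 (adjusted p = 0.00303, limma) without overlap, a call that was lost without Ctrl 0 h replicate 30 or 56 or CIE 0 h replicate 67. Its representative 1429106_at differed by -0.22 with an adjusted p of 0.0442 (limma), and Hspa4l could thus be called on some of its probesets and not on its brightest.

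Hspa8 encodes HSC70, the constitutive HSP70 of the cytosol, and its probesets disagreed in size. Its least bright probeset, 1431182_at, lay between 7.91 and 8.36 (median 8.17) in Ctrl mice and between 7.26 and 7.84 (median 7.42) in CIE mice. These values were above the array medians. The difference was -0.68 (SE 0.14, adjusted p = 0.00169, limma), or 1.61-fold lower. The 3 bright probesets differed by -0.12, -0.11 and -0.09 and none was called. On the brightest, 1420623_x_at, the groups did not overlap even so, from 13.50 to 13.59 in Ctrl mice and from 13.39 to 13.47 in CIE mice (adjusted p = 0.0293, limma). Which transcript form 1431182_at reads was not tested.

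Hspa2 encodes an HSP70 best known from spermatogenesis, and it went the other way. It lay between 9.21 and 9.45 (median 9.32) in Ctrl mice and between 9.50 and 9.79 (median 9.67) in CIE mice, so that every CIE mouse was above every Ctrl mouse. The difference was 0.35 (SE 0.09, adjusted p = 0.00909, limma), or 1.27-fold higher. It passed the threshold narrowly, in 16 of 46 fits that left out 1 array, and its adjusted p reached 0.0332 in the others. The inducible genes Hspa1a and Hspa1b had no probeset called at 0 h, and the 3 Hspa1b probesets differed by -0.18, -0.06 and 0.02.

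Chordc1 encodes a zinc-binding co-chaperone of HSP90, and its promoter has the longest run of heat shock units shown above. Its probeset 1460645_at lay between 10.80 and 10.91 (median 10.85) in Ctrl mice and between 10.42 and 10.68 (median 10.55) in CIE mice, with no overlap. The difference was -0.30 (SE 0.05, adjusted p = 0.000192, limma), or 1.23-fold lower. No other of the 10 probesets of HSP90 and its co-chaperones was called, and all 10 were negative, down to -0.01 for the nearest to 0.

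Hspe1 encodes HSP10, the lid of the mitochondrial chaperonin ring. Its probeset 1422579_at lay between 10.45 and 10.54 (median 10.48) in Ctrl mice and between 10.19 and 10.35 (median 10.29) in CIE mice, a difference of -0.22 (SE 0.04, adjusted p = 0.000355, limma) without overlap. The representative 1450668_s_at differed by -0.10 and was not called (adjusted p = 0.0643, limma). No probeset of Hspd1, which encodes the ring itself and shares the promoter region with Hspe1, was called.

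Cct3 encodes a subunit of the cytosolic chaperonin, and 1 of its 7 probesets was called. This was 1459987_s_at, from 11.17 to 11.36 (median 11.29) in Ctrl mice and from 10.95 to 11.20 (median 11.02) in CIE mice, a difference of -0.22 (adjusted p = 0.000844, limma) that left 1 of 6 CIE mice within the Ctrl range. The representative Cct3 probeset, 1448178_a_at, differed by -0.07 (adjusted p = 0.353, limma). None of the 19 probesets of J-domain proteins, the 6 of HSP70 exchange factors and cofactors, or the 2 of Hsf2 was called at 0 h, and the J-domain probesets ran from -0.24 to 0.15.

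**Figure D3:**
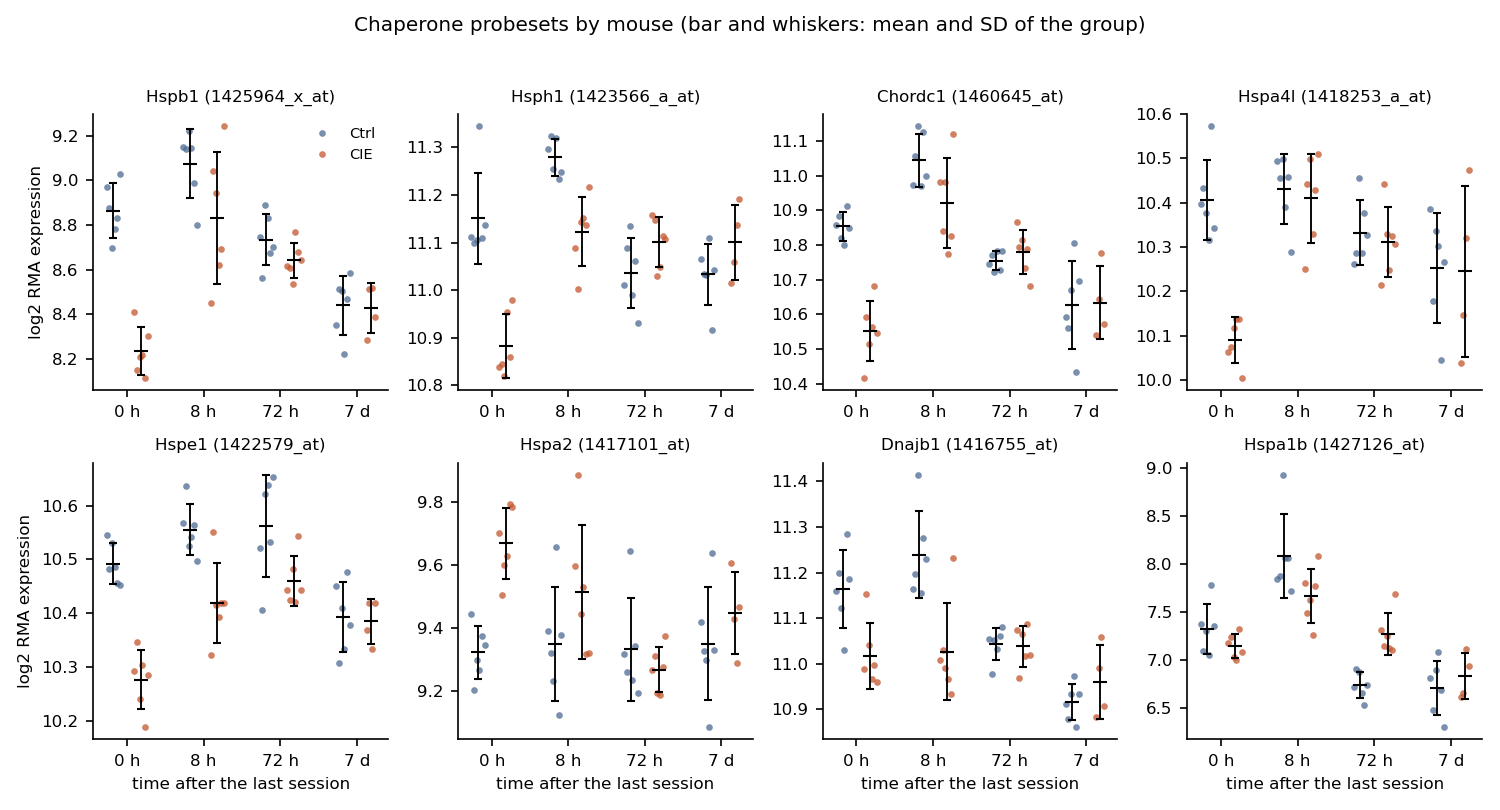
Log2 expression (y axis) by mouse at the 4 collection times (x axis) for 8 member probesets, Ctrl in blue and CIE in orange, with the mean and SD of each group. At 0 h every CIE mouse lies below every Ctrl mouse for Hspb1, Hsph1, Chordc1, Hspa4l and Hspe1 and above for Hspa2, and at 72 h every CIE mouse lies above every Ctrl mouse for Hspa1b.

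After 8 h of withdrawal a single member passed the test, Dnajb1, the J-domain partner of inducible HSP70. On probeset 1416755_at the Ctrl mice lay between 11.16 and 11.41 (median 11.21) and the CIE mice between 10.93 and 11.23 (median 11.00), and 1 of 6 CIE mice reached into the Ctrl range. The difference was -0.21 (SE 0.05, adjusted p = 0.00713, limma), or 1.16-fold lower. So 1 of 82 member probesets (1.22%) was called at 8 h, against 0.557% of all probesets, 0.222% lower. The call was lost without any of Ctrl 8 h replicates 42, 50, 66 and 75 or CIE 8 h replicates 15, 21, 23, 40 and 41, where the count was 0, and also when only the 8 h groups were fitted (adjusted p = 0.226, limma). The other Dnajb1 probeset, 1416756_at, differed by -0.17 and was not called. Of the cell type markers, 1 of 3 for oligodendrocyte precursors and 1 of 7 for microglia were called at 8 h, both lower in CIE mice. No marker of the other cell types was called. The part of these cells in the chaperone values at 8 h was not tested.

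A further 5 probesets had every CIE mouse below every Ctrl mouse at 8 h without being called, where 0.577% of all probesets did so. They were both probesets of Hsph1, and 1 each of Hspe1, Cct5 and Dnajb4. For Hsph1 (1425993_a_at) the Ctrl mice lay between 12.04 and 12.14 and the CIE mice between 11.89 and 12.03, a difference of -0.13 (adjusted p = 0.0607, limma). For Hspe1 (1450668_s_at) the Ctrl mice lay between 11.96 and 12.00 and the CIE mice between 11.81 and 11.88, also a difference of -0.13 (adjusted p = 0.0332, limma). For Hspb1 1425964_x_at the CIE mice were spread from 8.45 to 9.24 and the Ctrl mice from 8.80 to 9.22, a difference of -0.24 (SE 0.09, adjusted p = 0.207, limma).

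At 72 h no member was called by limma, against 0.433% of all probesets, and 17 of 82 members had an unadjusted p below 0.05, against 12.6% of all. Weighting the arrays gave 3 member calls at 72 h, and fitting only the 72 h groups gave 2. The lowest adjusted p values belonged to Cryab, the small heat shock protein alpha-B crystallin, which is abundant in oligodendrocytes and astrocytes. On 1416455_a_at the Ctrl mice lay between 10.84 and 11.13 and the CIE mice between 10.38 and 10.80, a difference of -0.43 (SE 0.10, adjusted p = 0.0171, limma) without overlap. On the representative 1434369_a_at the Ctrl mice lay between 12.18 and 12.31 and the CIE mice between 11.79 and 12.12 without overlap, a difference of -0.29 (SE 0.07, adjusted p = 0.0253, limma). The dim probeset 1435837_at differed by 0.02. The 6 oligodendrocyte markers were all lower in the same CIE mice, by 0.24 in the median and with none called, and their mean lay between 12.10 and 12.19 in Ctrl mice and between 11.82 and 11.99 in CIE mice. Of the astrocyte markers 6 of 7 were lower, by 0.12 in the median of all 7, with a mean between 11.38 and 11.53 in Ctrl mice and between 11.08 and 11.39 in CIE mice, and none was called. All 7 microglia markers were lower, with a median of -0.44 and none called, and of 3 oligodendrocyte precursor markers Gpr17 fell (-0.48). The 6 extended amygdala markers had a median of 0.34, with 1 of them lower and none called. Their mean lay between 10.15 and 10.61 in Ctrl mice and between 10.67 and 11.03 in CIE mice. All 5 measured striatal markers were lower, with a median of -0.21 and none called. The part of all these cells in the Cryab and Hspa1b values at 72 h was not tested. For 2 member probesets, both of Cryab, the CIE mice lay wholly below the Ctrl mice at 72 h and for 2, both of Hspa1b, wholly above, where 1.24% and 1.66% of all probesets did so.

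At 7 d no member and no probeset of the array was called (0%), and 5 of 82 members had an unadjusted p below 0.05, against 4.94% of all. The smallest adjusted p of a member was 0.52 (limma), and the member median was 0.00060. The groups did not overlap for 1 Dnajb5 probeset, lower in CIE mice, and 1 Hspd1 probeset, higher, where 0.573% and 0.544% of all probesets lay so. In the 4 CIE mice Hspb1 (1425964_x_at) was at 8.28, 8.39, 8.51 and 8.52, inside the Ctrl range of 8.22 to 8.59. All 4 lay below the lowest Ctrl mouse of 0 h. In Ctrl mice this probeset differed by -0.42 from 0 h to 7 d (adjusted p = 0.00183, limma). In CIE mice it differed by 0.19 over that interval and was not called. Hsph1 (1423566_a_at) was at 11.01, 11.06, 11.14 and 11.19 in the 4 CIE mice of 7 d, and 2 of them were above every Ctrl mouse of 7 d. Chordc1 was at 10.54, 10.57, 10.64 and 10.78, where the Ctrl mice of 7 d lay between 10.43 and 10.81. These 4 CIE values were also below the lowest Ctrl mouse of 0 h.

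Whether the CIE difference itself changed was tested as a difference between times. Over the interval to 72 h it rose for 4 member probesets, where 0.988% of all probesets changed, 0.506% upward. These were both probesets of Hsph1, by 0.33 (SE 0.06, adjusted p = 0.000762, limma) and 0.25 (adjusted p = 0.00341, limma), Hspb1 1425964_x_at by 0.54 (adjusted p = 0.00907, limma) and Chordc1 by 0.33 (adjusted p = 0.00907, limma). Between 0 h and 7 d it rose for 2, Hsph1 1423566_a_at by 0.34 (adjusted p = 0.00261, limma) and Hspb1 1425964_x_at by 0.62 (adjusted p = 0.0074, limma), against 0.437% of all probesets, 0.278% upward. These contrasts share the 0 h mice, so they are not separate evidence. For Hspb1 1425964_x_at the Ctrl mice differed by -0.42 between 0 h and 7 d, which was called. The CIE mice differed by 0.19, which was not. The Hsph1 calls from 0 h to 72 h held in each of 46 fits without 1 array, while those of Hspb1 and Chordc1 held in 20 each, and the 0 h to 7 d count fell to 0 without CIE 7 d replicate 59 or 65. From 0 h to 8 h no member's difference changed (limma), against 0.0799% of all probesets, with 17 of 82 at an unadjusted p below 0.05, against 7.26% of all. From 72 h to 7 d there was also no call (0% of all probesets), with 6 of 82 members at an unadjusted p below 0.05, against 5.64% of all.

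The inducible HSP70 genes Hspa1a and Hspa1b are close copies, so a probe for either may read both. Of all members, Hspa1b varied most over the collection times in Ctrl mice. On Hspa1b 1427126_at the Ctrl means were 7.33 (SD 0.26) at 0 h, 8.08 (SD 0.43) at 8 h, 6.74 (SD 0.14) at 72 h and 6.71 (SD 0.28) at 7 d, and the CIE means 7.14 (SD 0.12), 7.67 (SD 0.28), 7.27 (SD 0.22) and 6.83 (SD 0.24). The CIE mice were thus lower than Ctrl by 0.41 at 8 h, with overlap (adjusted p = 0.203, limma), and higher by 0.53 at 72 h without overlap, from 7.11 to 7.69 against 6.53 to 6.91 (adjusted p = 0.0473, limma). Neither difference was called, and their change from 8 h to 72 h was, at 0.94 (SE 0.21, adjusted p = 0.0093, limma), where 0.515% of all probesets changed, 0.2% upward. This call was lost when only these groups were fitted, it held in 14 of 46 fits without 1 array, and without Ctrl 8 h replicate 50, the highest mouse at 8.92, the change was 0.77. The other Hspa1b probesets changed by 0.83 and 0.67 and Hspa1a by 0.38, none of them called.

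Members also differed between collection times in air mice, which had no ethanol at any time. Over the 4 Ctrl groups 25 of 82 member probesets (30.5%), in 19 genes, were called by the F test of limma, against 10.9% of all probesets, and over the 4 CIE groups 17 (20.7%), in 11 genes, against 7.76%. Hspa1b and Hsph1 were higher at 8 h than at 0 h in Ctrl mice. From 0 h to 8 h, 5 were called, where 0.713% of all probesets were, 0.424% higher and 0.289% lower. These were the 3 Hspa1b probesets higher by 0.76, 0.82 and 0.74, Hsph1 1425993_a_at higher by 0.18, and the dim Hspa9 probeset 1431274_a_at lower by 0.53. That count was 3 without Ctrl 0 h replicate 12 or Ctrl 8 h replicate 8, 2 without Ctrl 0 h replicate 30 or 38 or Ctrl 8 h replicate 42, and 1 without Ctrl 8 h replicate 58. It was 2 with array weights and 0 when only these groups were fitted.

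From 8 h to 72 h all 9 called member probesets fell in Ctrl mice, where 1.1% of all probesets were called, 0.722% lower. They were the 3 of Hspa1b, by 1.34, 1.22 and 1.06, Hspa1a by 0.48, both of Hsph1, by 0.24 and 0.21, Chordc1 by 0.29, Dnajb1 by 0.20 and Dnajb4, another J-domain partner of HSP70, by 0.12. Between 0 h and 72 h, which fall at the same clock time, no member was called in Ctrl mice (limma), against 0.173% of all probesets, with 13 of 82 at an unadjusted p below 0.05, against 11.9% of all. By 7 d, 6 members had fallen from their 0 h level in Ctrl mice, where 2.23% of all probesets were called, 1.93% lower. These included Dnajb1 by 0.25 (SE 0.05, adjusted p = 0.000506, limma), Hspb1 1425964_x_at by 0.42 and Bag3, an exchange factor that works with autophagy, by 0.50. That count was 3 without Ctrl 0 h replicate 12, 10 without Ctrl 0 h replicate 48, 2 with array weights and 0 when only these groups were fitted. Over the same interval the astrocyte markers Gfap (-0.69) and Aldh1l1 (-0.52) and the endothelial marker Cldn5 (-0.50) fell in Ctrl mice, and Slc1a3 (0.23), of astrocytes, and Gpr17 (0.64), of oligodendrocyte precursors, rose. All 5 striatal markers were higher at 7 d, by 0.57 in the median with none called, and the part of these cells in the fall of the members was not tested.

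In CIE mice Hspb1, Hsph1, Chordc1 and Hspa4l, which were lower than in Ctrl mice at 0 h, had risen by 8 h. From 0 h to 8 h all 9 called member probesets rose, where 3.24% of all probesets were called, 1.88% higher. Hspb1 1425964_x_at rose by 0.60 (SE 0.09, adjusted p = 1.17e-05, limma), Chordc1 by 0.37, Hspa4l 1418253_a_at by 0.32 and Hsph1 1425993_a_at by 0.25, and the J-domain genes Dnaja1 and Dnaja2 by 0.13 and 0.19. In Ctrl mice Hsph1 1425993_a_at was also called higher from 0 h to 8 h. Chordc1 differed by 0.19 there, and the small heat shock protein probesets by 0.03 to 0.25, without a call. The change of the CIE difference from 0 h to 8 h was not called for any member. By 72 h 14 member probesets were called in CIE mice, 13 higher and Hspa2 lower by 0.40, where 6.07% of all probesets were called, 3.65% higher and 2.43% lower. Hspa4, the third HSP110 gene, rose by 0.41 and Dnaja2 1417182_at by 0.32 over that interval. That count was 9 without CIE 72 h replicate 61, 63 or 71 and 26 with array weights. Over the same interval the 6 mural markers were all higher, by 0.27 in the median with Kcnj8 (0.45) and Vtn (0.37) called, the endothelial markers Kdr (0.52) and Itm2a (0.28) rose and Slc2a1 (-0.56) fell, and Fcrls, of microglia, rose by 1.46. Of the other lists, the astrocyte markers Aqp4 and Slc1a3, Gpr17 and the red cell marker Alas2 rose, and Mobp, of oligodendrocytes, and Foxj1, of ependyma, fell. Their part in the rise of the members was not tested. By 7 d 3 were called, both probesets of Hsph1 and Dnaja2 1417182_at, where 2.49% of all were called, 0.711% higher. That count was 1 without CIE 7 d replicate 59 and 0 when only these groups were fitted. Between 8 h and 72 h no member was called (limma), against 1.37% of all probesets, with 17 of 82 at an unadjusted p below 0.05, against 11.9% of all. These contrasts share their 0 h mice with the CIE difference at 0 h, so they are not separate evidence.

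**Figure D4:**
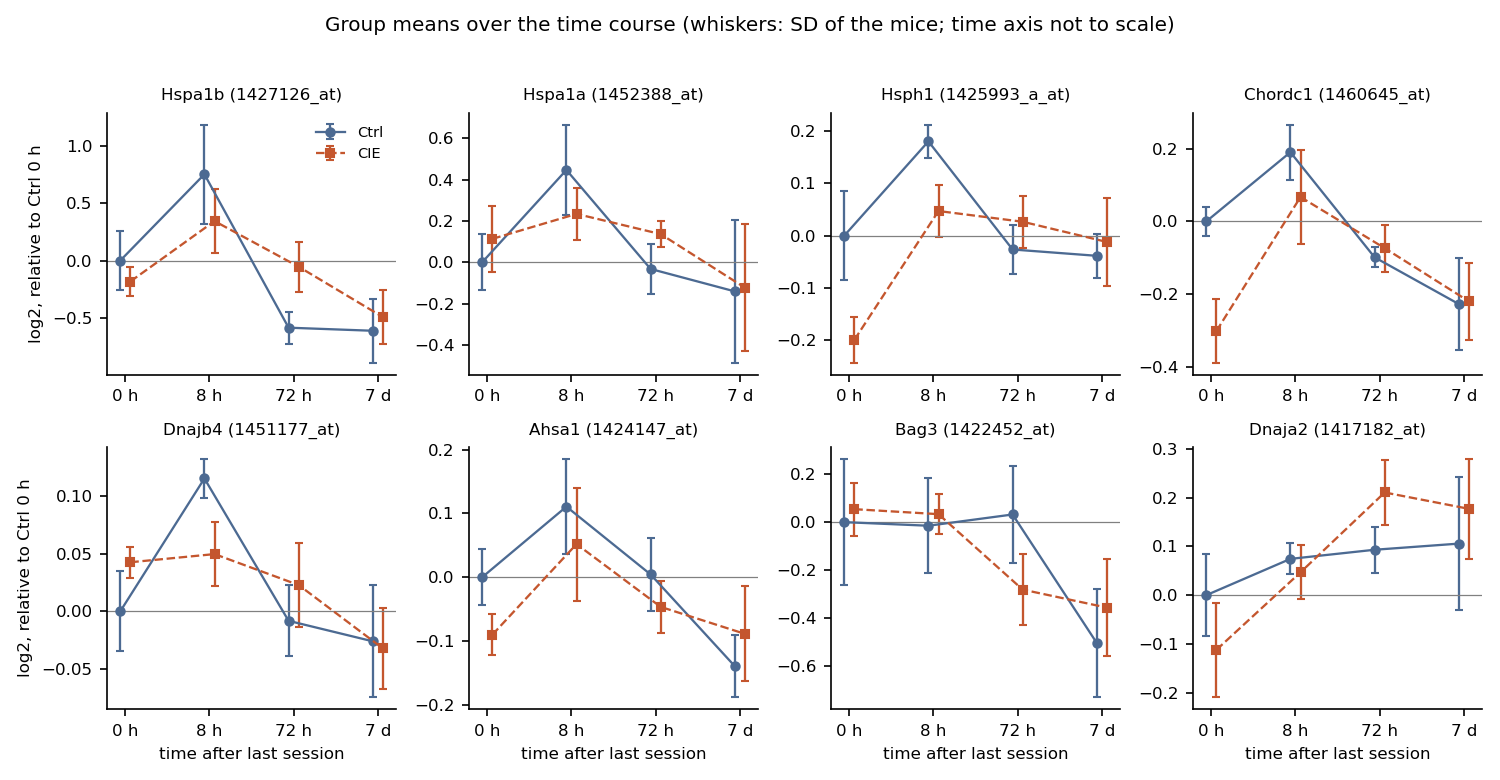
Group means of 8 member probesets relative to the Ctrl mean at 0 h (y axis, log2) over the collection times (x axis, not to scale), Ctrl as blue circles with solid lines and CIE as orange squares with dashed lines, with the SD of the mice as whiskers. Hspa1b in Ctrl mice is highest at 8 h and lowest at 7 d, while Hsph1 and Chordc1 in CIE mice are lowest at 0 h.

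Other members changed with collection time and had no call in a CIE contrast. Ahsa1, which stimulates the ATPase of HSP90, had Ctrl means of 11.27, 11.38, 11.27 and 11.13 over the 4 times (F test adjusted p = 0.000146, limma). Dnajb4 had Ctrl means of 11.66, 11.78, 11.66 and 11.64, and Tcp1, a chaperonin subunit, of 12.00, 12.10, 12.00 and 11.98. In all, 13 members were called over time in Ctrl or CIE mice and in no CIE contrast, and 9 members, Cryab, Stip1, Cacybp, Dnajb5, Bag1, Hspbp1, Cct2, Hspd1 and Hsf2, in none. The 22 members with no CIE call had representative differences between -0.29 (Hspa4) and 0.11 (Hspa1a) at 0 h and between -0.09 (Hspbp1) and 0.17 (Hspa4) at 7 d.

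Member probesets varied little between mice of a group, with a median residual SD of 0.106 against 0.135 for all probesets. The most variable were Hspa4 1416147_at at 0.40, Hsf2 1449306_at at 0.29, Hspa4l 1458385_at at 0.29 and Hsp90aa1 1437497_a_at at 0.29, each a probeset for which a difference of the size seen in Hsph1 is within the spread. Hsp90aa1, the inducible HSP90, had a representative near the top of the scale, with group means between 13.07 and 13.15, and no CIE call on any probeset.

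Genes of the wider folding machinery were called at 0 h about as often as probesets of the array as a whole. Of 84 measured genes in 7 further lists of chaperones and their regulators, each read on its brightest probeset, 2 were called, where 2.4% of all probesets were. These were Bag4, an exchange factor and silencer of death receptors, higher by 0.27 (SE 0.06, adjusted p = 0.00491, limma), and Aarsd1, lower by 0.19 (adjusted p = 0.00725, limma). Their median difference was -0.03 and 53 of 84 were negative. By list, the negative differences were 12 of 14 for further HSP90 co-chaperones, 9 of 12 for chaperonin and prefoldin subunits, 7 of 11 for mitochondrial chaperones and proteases, 5 of 7 for heat shock factors and genes induced by HSF1, 13 of 24 for J-domain proteins, 3 of 7 for small heat shock proteins and 4 of 9 for HSP70 family members and exchange factors, where 51.1% of all probesets were negative. Differences between the lists were not tested. None of the 84 was called between CIE and Ctrl at 8 h, 72 h or 7 d. Of the 32 members read in the same way, on their representative, 4 were called at 0 h, 3 lower and 1 higher. The share among the brightest probesets of all genes was not tested.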

How the data were processed

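BNST RNA of single mice was hybridized to Affymetrix GeneChip arrays of the mouse genome, 1 per mouse. The authors deposited log2 values made by RMA background correction, quantile normalization within hybridization batches and then over all arrays, and ComBat batch adjustment. The batch of each array is not given in the sources used here and was not tested again. Normalization and ComBat can shrink differences that follow a batch.

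Probesets were named through the platform annotation, and of 45037 probesets 34945 had 1 symbol, 932 several and 9160 none. Group means of all 46 arrays were fitted with limma 3.58.1 in R 4.3.3, over all probesets, with Benjamini-Hochberg adjustment within each contrast and a threshold of 0.01. SE values are moderated, and differences are CIE minus Ctrl on the log2 scale. The fit was tested on simulated data. No arrays were identical. The number of arrays limits the precision, and probesets sharing probes with near copies (names with _x_ or _s_) are uncertain.

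Members with a CIE call were described by mouse, those called over time only by group means and the rest by range, and further chaperone genes were named where called. The members, lists and rule were chosen with earlier results of these data known. Alternatives were aligned array medians, leaving out probesets with a mean below 6, fitting only the groups compared, array weights, a trended robust prior, a threshold of 0.05, leaving out each array, and the mean over a gene's probesets. Promoter sequences are from RefSeq (GRCm38.p6).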

Additional observations from a re-analysis of the deposited data

Results flagged for a closer look

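Of 104 groups of mice, over 13 probesets of the members described by mouse, 8 held a mouse far from the rest of its group by Dixon's ratio of its gap to the group's range, where chance gives about 1 in 20. High mice were Ctrl 0 h replicate 48 for Hsph1 1423566_a_at (ratio 0.848), Ctrl 8 h replicate 50 (0.714) and CIE 72 h replicate 71 (0.646) for Hspa1b 1427126_at, Ctrl 72 h replicate 34 for Hspa2 (0.669), CIE 8 h replicate 69 for Dnajb1 1416755_at (0.677) and CIE 7 d replicate 65 for Cct3 1459987_s_at (0.916). Low mice were Ctrl 8 h replicate 75 (0.63) and Ctrl 7 d replicate 46 (0.672), both for Hsph1 1425993_a_at. Without Ctrl 0 h replicate 48 the CIE difference of Hsph1 1423566_a_at at 0 h was -0.23, and it was still called.

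The CIE difference itself changed between times for 7 pairs of probeset and interval, each tested as a contrast of differences in limma. Over 0 h to 72 h these were Hsph1 1423566_a_at (0.33) and 1425993_a_at (0.25), Hspb1 1425964_x_at (0.54) and Chordc1 (0.33). Over 0 h to 7 d they were Hsph1 1423566_a_at (0.34) and Hspb1 1425964_x_at (0.62), and from 8 h to 72 h Hspa1b 1427126_at (0.94).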

How the results depend on the processing

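No paired analysis was possible because the groups share no replicate numbers. No result changed direction under any alternative, and leaving out dim probesets, weighting arrays and a trended robust prior kept all 19 calls of single members in CIE contrasts. Aligned array medians ended 2 of the 19, mean over a gene's probesets 5 and fitting only the groups compared 10. Numbers of called member probesets moved as follows. Aligned medians gave 2 for the CIE effect from 0 h to 72 h, and dropping dim probesets 14 for CIE 8 h minus 0 h. Fitting only the groups compared gave 5 for CIE minus Ctrl at 0 h, 0 at 8 h and 2 at 72 h, 1 for the CIE effect from 0 h to 7 d and 0 from 8 h to 72 h, 0 for Ctrl 8 h minus 0 h, Ctrl 7 d minus 0 h and CIE 7 d minus 0 h, 5 for Ctrl 72 h minus 8 h and 16 over the 4 Ctrl groups. Array weights gave 3 for CIE minus Ctrl at 72 h, 2 for the CIE effect from 8 h to 72 h, 2 for Ctrl 8 h and 2 for Ctrl 7 d minus 0 h, 19 for CIE 8 h, 26 for CIE 72 h and 5 for CIE 7 d minus 0 h and 27 over the 4 CIE groups. A threshold of 0.05 gave 17, 2 and 3 for CIE minus Ctrl at 0 h, 8 h and 72 h, 7 and 4 for the CIE effect from 0 h to 72 h and to 7 d, 2 from 8 h to 72 h, 11 and 10 for Ctrl 8 h and 7 d minus 0 h, and 20 and 28 for CIE 8 h and 72 h minus 0 h. Leaving out 1 array gave 9 to 16 for CIE minus Ctrl at 0 h, 0 to 1 at 8 h and at 72 h, and 0 at 7 d. It gave 2 to 4 for the CIE effect from 0 h to 72 h, 0 to 3 to 7 d, and 0 to 1 from 8 h to 72 h. It gave 1 to 6, 3 to 10 and 6 to 9 for Ctrl 8 h minus 0 h, 7 d minus 0 h and 72 h minus 8 h, 8 to 12, 9 to 15 and 1 to 3 for CIE 8 h, 72 h and 7 d minus 0 h, 19 to 29 over the Ctrl groups and 12 to 19 over the CIE groups. The CIE 7 d group had 4 mice, and why these numbers moved was not tested except that fitting only the groups compared leaves fewer mice for the spread.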

Other observations

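Cirbp, the cold-inducible RNA-binding protein gene, was higher in CIE mice at 0 h by 0.31 (SE 0.07, adjusted p = 0.00288, limma), at the time when Hspb1, Hsph1 and Chordc1 were lower, and in CIE mice it fell by 0.35 from 0 h to 8 h (adjusted p = 0.000667, limma). Cirbp also moved in air mice, where the difference from 0 h to 8 h was -0.18 (adjusted p = 0.119, limma) and it rose by 0.30 from 8 h to 72 h (adjusted p = 0.00806, limma), and the change of its CIE difference from 0 h to 8 h, at -0.17, was not called (adjusted p = 0.808, limma). Hspb8, a small heat shock protein gene that partners Bag3, fell by 0.62 in Ctrl mice from 0 h to 7 d (adjusted p = 0.00153, limma) and by 0.56 in CIE mice from 0 h to 72 h (adjusted p = 0.00163, limma). Serpinh1, the collagen chaperone HSP47 of the endoplasmic reticulum, rose by 0.35 in CIE mice from 0 h to 8 h (adjusted p = 0.00661, limma), where the difference in air mice was 0.17 (adjusted p = 0.278, limma) and the change of the CIE difference, at 0.18, was not called (adjusted p = 0.875, limma). Of the 2 cold-inducible genes looked for, only Cirbp was measured. No reading of body temperature was among the data used here, and a part of temperature in these values was not tested.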
